A study of Mus musculus with 3 samples.

Results

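The immediate early genes *Fos*, *Fosb*, *Jun*, *Junb*, *Jund*, *Egr1*, *Egr2*, *Ier2*, *Atf3* and *Dusp1* were examined in the choroid plexus epithelium (CPE) of the mouse, the cell layer in the brain ventricles that makes cerebrospinal fluid. The members were taken by name: every probe for a transcript (control spots left out) whose gene name in the scanner tables was 1 of these 10 symbols, in both channels of all 3 arrays. This gave 11 probes of 9 genes, among 21597 named genes on the array. No probe carries the name *Jund*. A probe named *Jund1* has the accession of *Jund* in the RefSeq gene table, and its values are given beside the others but are not counted with them.

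The CPE came from 3 healthy, untreated C57BL/6 mice, 18 to 21 weeks old, which were anaesthetised with CO2 and O2 and killed by cervical dislocation. Epithelial cells were laser dissected from frozen sections of 20 µm, taken from the lateral ventricles, and their amplified RNA was labelled red (Cy5). Each mouse had an array on a slide of its own, so mouse, array and slide cannot be told apart. On every array the CPE was set against 1 common reference RNA, labelled green (Cy3), extracted from the RPE (retinal pigment epithelium) together with the choroid of wild type C57BL/6 mice. The dyes were not swapped, so a dye bias of a probe stays in its ratio. The reference has no biological replicates here, and the error of a ratio covers the spread of the 3 CPE samples and of the arrays alone. There is no stimulated or otherwise treated group, so a ratio below says how the CPE of these mice stood against that reference, and nothing about induction.

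Immediate early genes are transcribed within minutes of a stimulus, without new protein synthesis, by transcription factors that are already present and are switched on by kinases. Serum response factor with its ternary complex partners binds CArG boxes, and CREB binds cyclic AMP response elements. Most of the proteins made are themselves transcription factors: FOS and JUN family members pair into AP-1, and EGR proteins bind GC-rich sites. *Dusp1* encodes a phosphatase that switches MAP kinases off again. The transcripts are short-lived, and they are known to respond to growth factors, stress and neuronal activity.

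The arrays differed in signal over background, and this touches the dim members. Of 41174 probes, 58.5%, 46% and 85.6% were well above background in the CPE channel of mice 1, 2 and 3. The background surface that the scanner software fitted had a median of 81.15 and 82.57 in the CPE channel of mice 1 and 2, and 362.6 in mouse 3. In the reference channel the medians were 113.4, 111.8 and 235.8. All 9 members counted by name had their highest raw CPE intensity in mouse 3, so raw CPE intensities are not compared between mice below. Arrays 1 and 3 were scanned on 1 day and array 2 on the next.

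Promoter windows in the RefSeq table (build GRCm38.p6, from 250 bases before to 50 after a gene's start) were found for 8 of the 10 listed genes, *Jund* included, with 12 windows in all, since *Egr2* has 5. The windows of *Egr1* and *Ier2* were not used here. Those of *Fos*, *Junb* and *Dusp1*, the genes with a window that were lower in CPE, are shown because they share a sequence element, which members that were not past the threshold hold too. Capitals mark the cyclic AMP response element TGACGTCA, its core TGACG, which the full element contains on both strands, and the TATA box TATAAA.
Fos promoter, chr12:85473640-85473939, plus strand: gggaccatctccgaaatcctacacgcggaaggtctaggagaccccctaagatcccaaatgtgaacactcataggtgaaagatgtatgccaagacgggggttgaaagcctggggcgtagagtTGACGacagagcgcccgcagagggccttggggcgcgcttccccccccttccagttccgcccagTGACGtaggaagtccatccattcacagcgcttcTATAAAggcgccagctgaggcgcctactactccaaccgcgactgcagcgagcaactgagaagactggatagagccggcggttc
Junb promoter, chr8:84978699-84978998, minus strand: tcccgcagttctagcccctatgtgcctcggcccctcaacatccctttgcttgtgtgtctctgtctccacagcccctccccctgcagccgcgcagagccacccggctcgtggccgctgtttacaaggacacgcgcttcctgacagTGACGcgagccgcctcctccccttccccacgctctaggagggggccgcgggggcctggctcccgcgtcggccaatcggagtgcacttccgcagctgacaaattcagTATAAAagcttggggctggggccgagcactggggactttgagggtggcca
Dusp1 promoter, chr17:26508423-26508722, minus strand: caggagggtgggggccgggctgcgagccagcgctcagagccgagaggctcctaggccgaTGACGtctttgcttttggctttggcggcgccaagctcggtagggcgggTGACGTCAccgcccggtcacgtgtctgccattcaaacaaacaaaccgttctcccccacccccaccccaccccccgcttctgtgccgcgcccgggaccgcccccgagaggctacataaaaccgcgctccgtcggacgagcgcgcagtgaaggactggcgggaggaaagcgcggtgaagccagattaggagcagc
The core TGACG, searched on both strands, lay in a window of 6 of the 8 genes (*Fos*, *Fosb*, *Junb*, *Egr2*, *Atf3* and *Dusp1*) and in 8 of the 12 windows, which for *Egr2* overlap. It lay in 20.8% of all 32851 windows of this length. In *Fos* it began 129 and 66 bases before the start, with the TATA box at 33 bases before it. In *Junb* it began 106 bases before the start, and TATAAA lay at the start itself, not upstream of it as in *Fos*. In *Dusp1* it began 191 and 143 bases before the start. The second match is part of the full element TGACGTCA, which 1.79% of all windows hold. No other gene of the 8 with a window held the full element. TATAAA was found in *Fos* and *Junb* (13.6% of all windows), the CArG box of *Egr2* in 4 of its 5 windows (1.63%), and the EGR site GCGNGGGCG in *Fosb* (5.55%). The AP-1 site, searched as TGANTCA alone (7.81%), was found in none of the 12 windows. The windows of *Jun* and *Jund* held none of the elements searched. The search reached 250 bases before a start, and elements further away were not looked for. A missing match thus does not mean that a gene lacks the element. The matches found describe the letters of the windows, and no binding was measured.

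The comparison of CPE with the reference asks which genes differ between this epithelium and the RPE and choroid. Of the 9 members, *Fos*, *Junb*, *Egr1* and *Dusp1* were lower in CPE, by 3.95-, 3.31-, 3.70- and 2.11-fold. The other 5 were not past the threshold, and 0 were higher (limma, adjusted p under 0.05 and a difference of at least 2-fold; at an unadjusted p under 0.05, 0 were higher and 8 lower). Over all 25847 probes tested, 10.2% were lower and 7.09% were higher by the same rule. *Jund*, a listed gene left out of these counts because of its probe name, was higher in CPE by 3.06-fold (limma adjusted p = 0.000408). At an adjusted p under 0.05 and any fold, 7 of the 9 were lower, against 22.3% of all probes. The log2 ratio was below 0 in every mouse for 8 of the 9 genes, against 36.6% of all probes, and *Fosb* was the exception. The median log2 ratio was −0.97 over the 9 genes and −0.04 over all probes tested. A probe was tested only if 1 channel, CPE or reference, was well above background on every array. All 9 genes were above background in the reference on every array, and 6 of them were so in the CPE of every mouse too. The others, *Fos*, *Fosb* and *Egr2*, were tested through the reference channel alone, so the counts describe the list and are no separate support for its direction. In bulk samples, fewer cells of a type and less RNA per cell cannot be told apart.

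**Figure D1:**
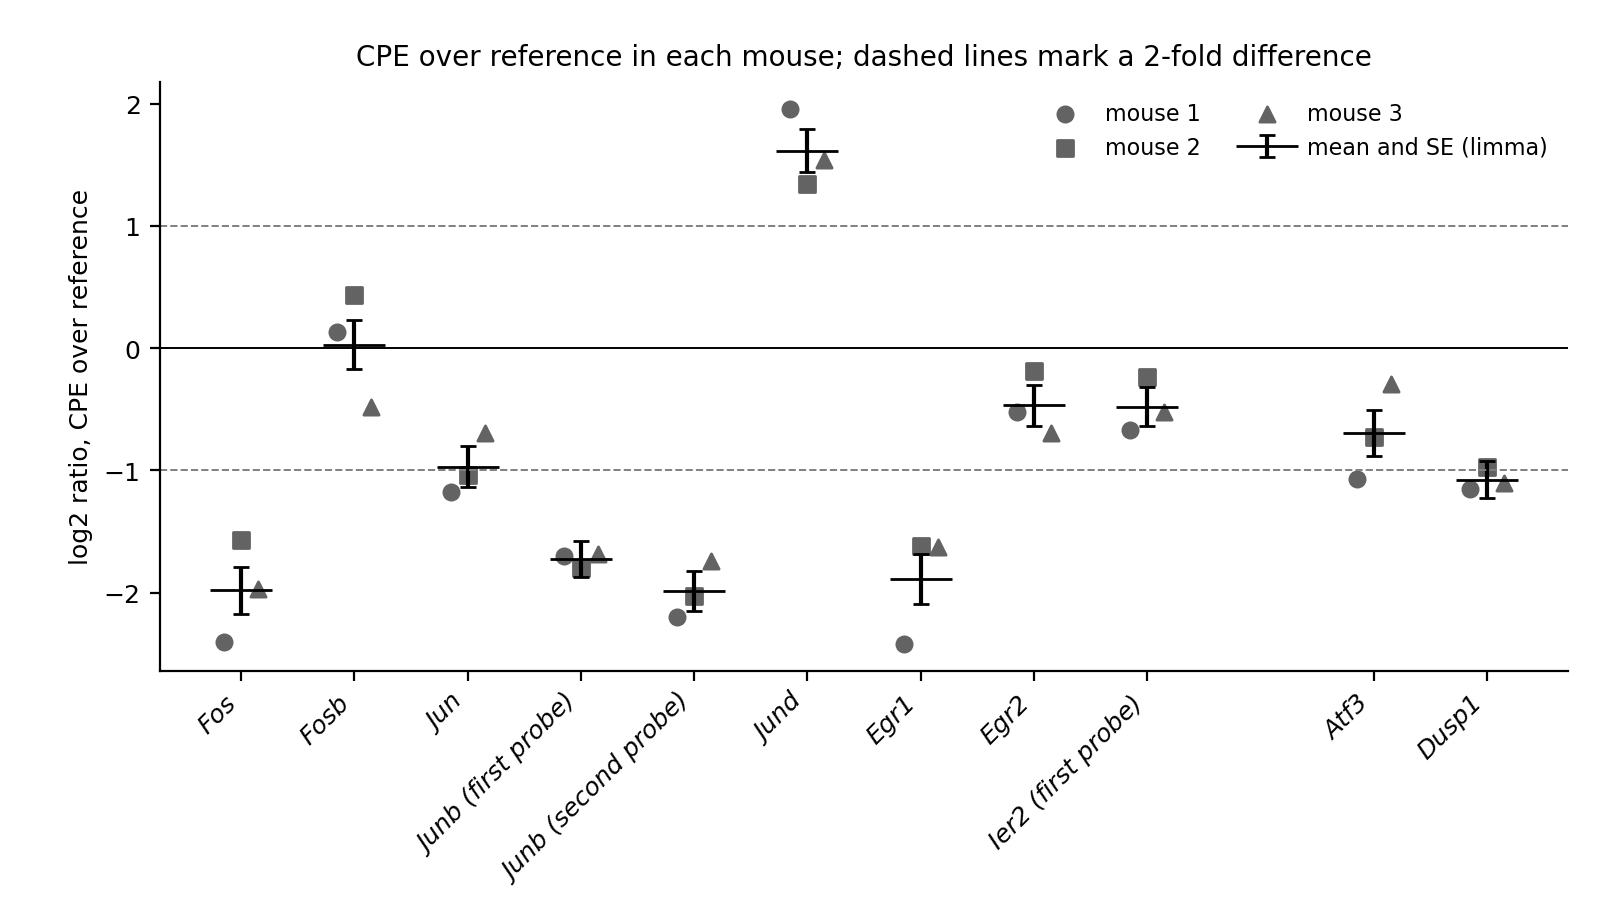
The log2 ratio of CPE over reference (vertical axis) is plotted for each probe that was tested, with 1 symbol per mouse and the limma mean with its SE as a bar, and the second *Ier2* probe has no points because it was not tested. The points of *Fos*, both *Junb* probes and *Egr1* all lie below a 2-fold difference (dashed line), *Fosb* lies on both sides of 0, and *Jund* is the probe above it.

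The FOS proteins need a JUN partner to bind DNA. *Fos* encodes the founding member of the family and is widely used as a marker of recent cell activation. Its probe (chromosome 12, 86366053 to 86366112, plus strand, mm8) had a CPE intensity of 127 in mouse 1, 134 in mouse 2 and 386 in mouse 3, where the background surface at the same spot was 83.7, 86.6 and 373. The intensity in the reference was 521, 472 and 501 on the 3 arrays. The CPE signal of *Fos* therefore lay close to the surface in every mouse, and in mouse 3 it was not well above background, while the reference signal was clear on every array. The log2 ratio was −2.40, −1.57 and −1.97, with a mean of −1.98 (SE 0.19, n = 3; limma adjusted p = 0.000245). With the log ratio of the scanner software, which subtracts the surface, it was −3.59, −2.33 and −5.42. The direction was the same in the 3 mice, and the size of the *Fos* difference rests on a CPE signal near background.

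*Fosb* encodes a close relative of FOS. Its probe (chromosome 7, 18461650 to 18461709, minus strand) was dim in both channels: the CPE intensity was 137, 119 and 339, and that of the reference 165, 154 and 263. In mouse 3 it lay below the surface in the CPE channel, at 357. For *Fosb* the log2 ratio was 0.13, 0.44 and −0.48, with a mean of 0.03 (SE 0.20, n = 3; limma adjusted p = 0.928). The mice lay on both sides of 0, and its difference from the reference was not detectable at this signal.

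*Jun* encodes the partner that completes the classical AP-1 dimer. Its probe (chromosome 4, 94541191 to 94541250, minus strand) was well above background in every sample, with a CPE intensity of 421, 302 and 969 and a reference intensity of 611, 612 and 739. *Jun* had a log2 ratio of −1.18, −1.04 and −0.69, with a mean of −0.97 (SE 0.17, n = 3; limma adjusted p = 0.00326). It was below 0 in every mouse but, at 1.96-fold, just short of the 2-fold limit. Without mouse 3 the mean was −1.11 and *Jun* passed the threshold (limma adjusted p = 0.00432).

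JUNB is a JUN family protein that can restrain JUN. *Junb* has a pair of probes (chromosome 8, 87867049 to 87867108 and 87867087 to 87867146, minus strand) that overlap by 22 bases, so they are not independent measurements. The first, brighter probe had a CPE intensity of 990, 581 and 1164 and a reference intensity of 1666, 1602 and 1737. Its log2 ratio was −1.70, −1.80 and −1.68, with a mean of −1.73 (SE 0.15, n = 3; limma adjusted p = 0.000139). The second *Junb* probe had a CPE intensity of 671, 538 and 983 and a reference intensity of 1648, 1731 and 1465. Its log2 ratio was −2.20, −2.03 and −1.74, with a mean of −1.99 (SE 0.16, n = 3; limma adjusted p = 0.000111). Both *Junb* probes were above background in every sample and gave the same direction in every mouse.

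JUND is the JUN family protein that many resting cells make without stimulation. The probe named *Jund1* (chromosome 8, 73629526 to 73629585, plus strand) was the brightest shown here in the CPE, with an intensity of 15595, 7349 and 10806. The reference intensity was 1760, 1832 and 2075. For *Jund* the log2 ratio was 1.96, 1.35 and 1.54, with a mean of 1.62 (SE 0.17, n = 3; limma adjusted p = 0.000408). Every mouse was above the reference, by 3.06-fold in the mean. Among the JUN family probes, *Jund* was thus higher in CPE and *Junb* lower. Tested against a 2-fold difference rather than against 0, *Jund* was not past the threshold (limma adjusted p = 0.0721).

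**Figure D2:**
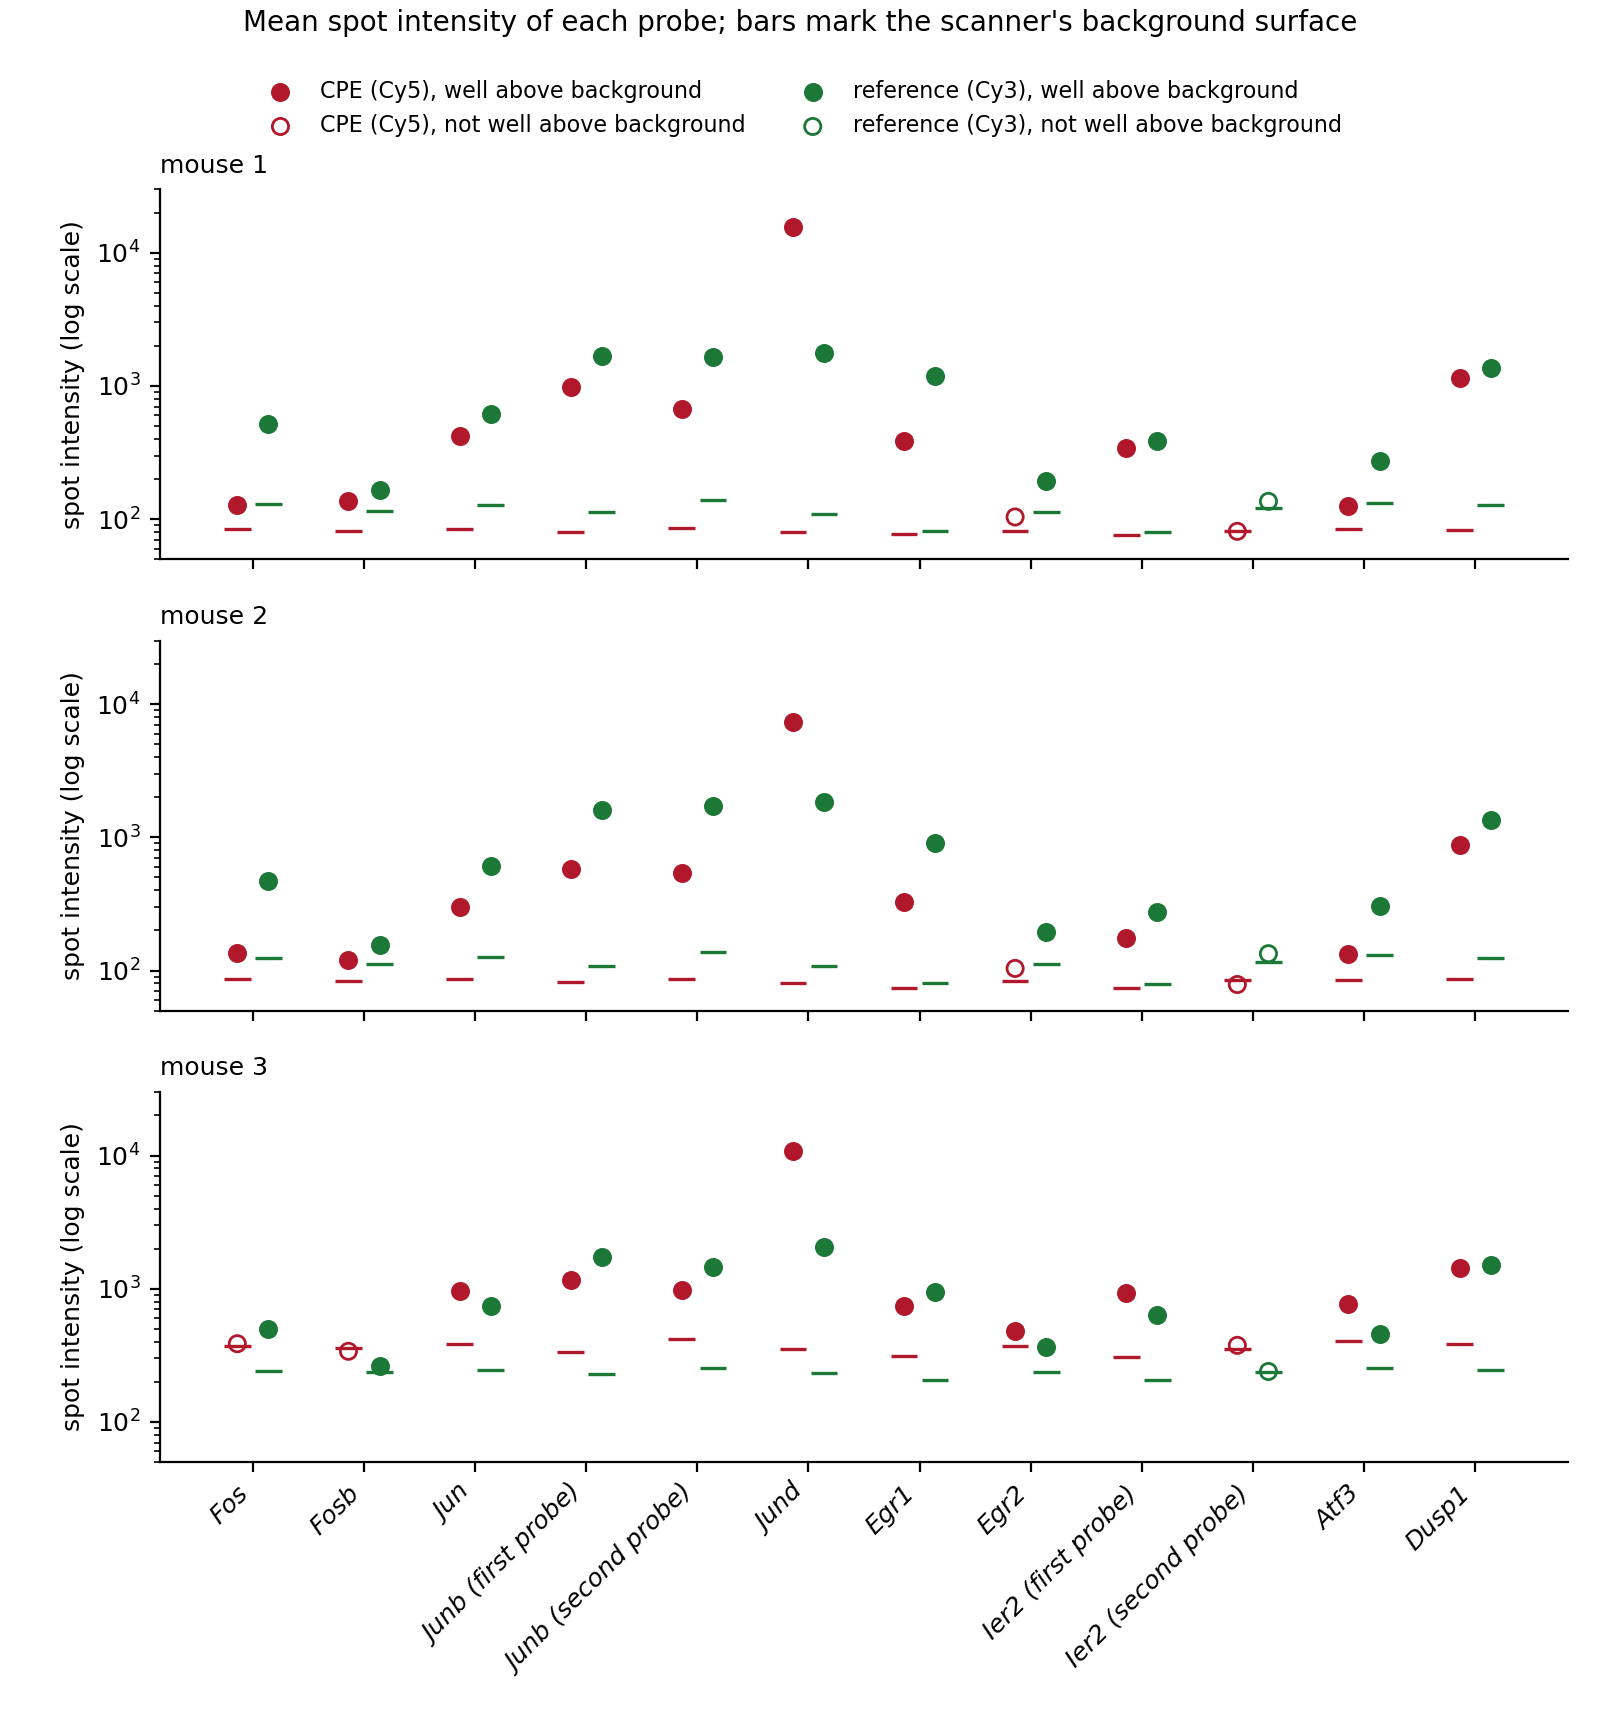
Mean spot intensity (log scale) of each probe is plotted by mouse, in red for CPE and green for the reference, with open symbols where the spot was not well above background and a bar at the scanner's background surface. The red bars lie higher in mouse 3 than in mice 1 and 2, the *Fos* spot of CPE sits close to its bar, and *Jund* is the probe with CPE far above the reference.

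EGR1 and EGR2 are zinc finger transcription factors. EGR1 responds to growth factors and neuronal activity, and EGR2 is known for its role in myelinating Schwann cells. The *Egr1* probe (chromosome 18, 34990715 to 34990774, plus strand) had a CPE intensity of 384, 326 and 741 and a reference intensity of 1179, 903 and 939, all above background. Its log2 ratio was −2.42, −1.62 and −1.63, with a mean of −1.89 (SE 0.20, n = 3; limma adjusted p = 0.000379). Mouse 1 lay lowest, and mice 2 and 3 were close to each other.

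The *Egr2* probe (chromosome 10, 66937367 to 66937426, plus strand) had a CPE intensity of 104, 104 and 482, above background in mouse 3 alone. The reference intensity was 194, 193 and 365, above background on every array. The log2 ratio of *Egr2* was −0.52, −0.19 and −0.69, with a mean of −0.47 (SE 0.17, n = 3; limma adjusted p = 0.0582). Its sign was the same in the 3 mice, and it did not pass the threshold. With the scanner's log ratio the mean of *Egr2* was −1.37 and it did pass (limma adjusted p = 0.0206).

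ATF3 is a stress-induced repressor of the ATF and CREB family that also pairs with JUN proteins. Its probe (chromosome 1, 192871283 to 192871342, minus strand) had a CPE intensity of 125, 134 and 762 and a reference intensity of 271, 306 and 459. *Atf3* had a log2 ratio of −1.07, −0.73 and −0.29, with a mean of −0.70 (SE 0.19, n = 3; limma adjusted p = 0.0217). All mice were below 0, over a range wider than that of *Jun*, and the mean was short of 2-fold. In mice 1 and 2 the CPE intensity of *Atf3* lay near the background surface, which was 84.6 and 85.5 there. With the scanner's log ratio the values of *Atf3* were −1.98, −1.13 and −0.37. Their mean of −1.16 was past 2-fold, but *Atf3* was not called (limma adjusted p = 0.0611).

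*Ier2* encodes a nuclear protein induced by growth factors. Its brighter probe (chromosome 8, 87549655 to 87549689, minus strand, 35 bases as placed on the genome) had a CPE intensity of 339, 176 and 926 and a reference intensity of 389, 277 and 630. The log2 ratio of *Ier2* was −0.67, −0.24 and −0.52, with a mean of −0.48 (SE 0.16, n = 3; limma adjusted p = 0.0494). Every mouse was below 0, at a mean difference of 1.39-fold. The other *Ier2* probe (87549829 to 87549887), 174 bases away, was below background in both channels on all 3 arrays and was not tested.

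DUSP1 removes phosphate from JNK, p38 and ERK kinases and is itself induced by them. The *Dusp1* probe (chromosome 17, 26233451 to 26233508, minus strand) was bright in both channels, with a CPE intensity of 1154, 872 and 1438 and a reference intensity of 1353, 1339 and 1516. For *Dusp1* the log2 ratio was −1.15, −0.97 and −1.10, with a mean of −1.07 (SE 0.15, n = 3; limma adjusted p = 0.00133). The mice were close to each other and the mean lay just past the 2-fold limit. With median centring of the array in place of loess, *Dusp1* had a log2 ratio of −0.49 and was no longer past the threshold (limma adjusted p = 0.291). No annotation of build mm8 was used here, so the exon or untranslated region under a probe is not given for any member.

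The study ranked probes by their level in CPE, with classes set at the 10th, 50th and 90th percentile of all probes. Because hybridisation differs from probe to probe, a higher percentile need not mean a more abundant transcript. By these ranks 6 of the 9 members were moderate in CPE, 3 were low and 0 were high. *Dusp1* ranked at percentile 85.4, *Junb* at 81.8, *Jun* at 72.8, *Egr1* at 70.3, *Ier2* at 68.4 and *Atf3* at 53.5. The low members were *Fosb* at 38.4, *Fos* at 34.8 and *Egr2* at 34.7. *Jund* ranked at 98.5, in the high class in every mouse.

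The ranks of the bright *Junb* and *Dusp1* varied little between mice, and those of the dim *Fos* and *Fosb* varied widely. The first *Junb* probe lay at 80.3, 80.4 and 82.3 in mice 1, 2 and 3, and the second at 74.4, 79.3 and 78.1. *Dusp1* lay at 82.6, 85.7 and 85.7. *Fos* lay at 39.5, 58.3 and 10.2, and *Fosb* at 50.6, 56.7 and 8.23, with mouse 3, whose surface was bright, lowest for both. In the reference channel *Fos* ranked at 75.8, *Egr1* at 88.2, *Dusp1* at 92.0 and *Junb* at 93.5. Ranked among only the probes above background in the CPE of every mouse, 2 members (*Junb* and *Dusp1*) were in the moderate class or higher.

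**Figure D3:**
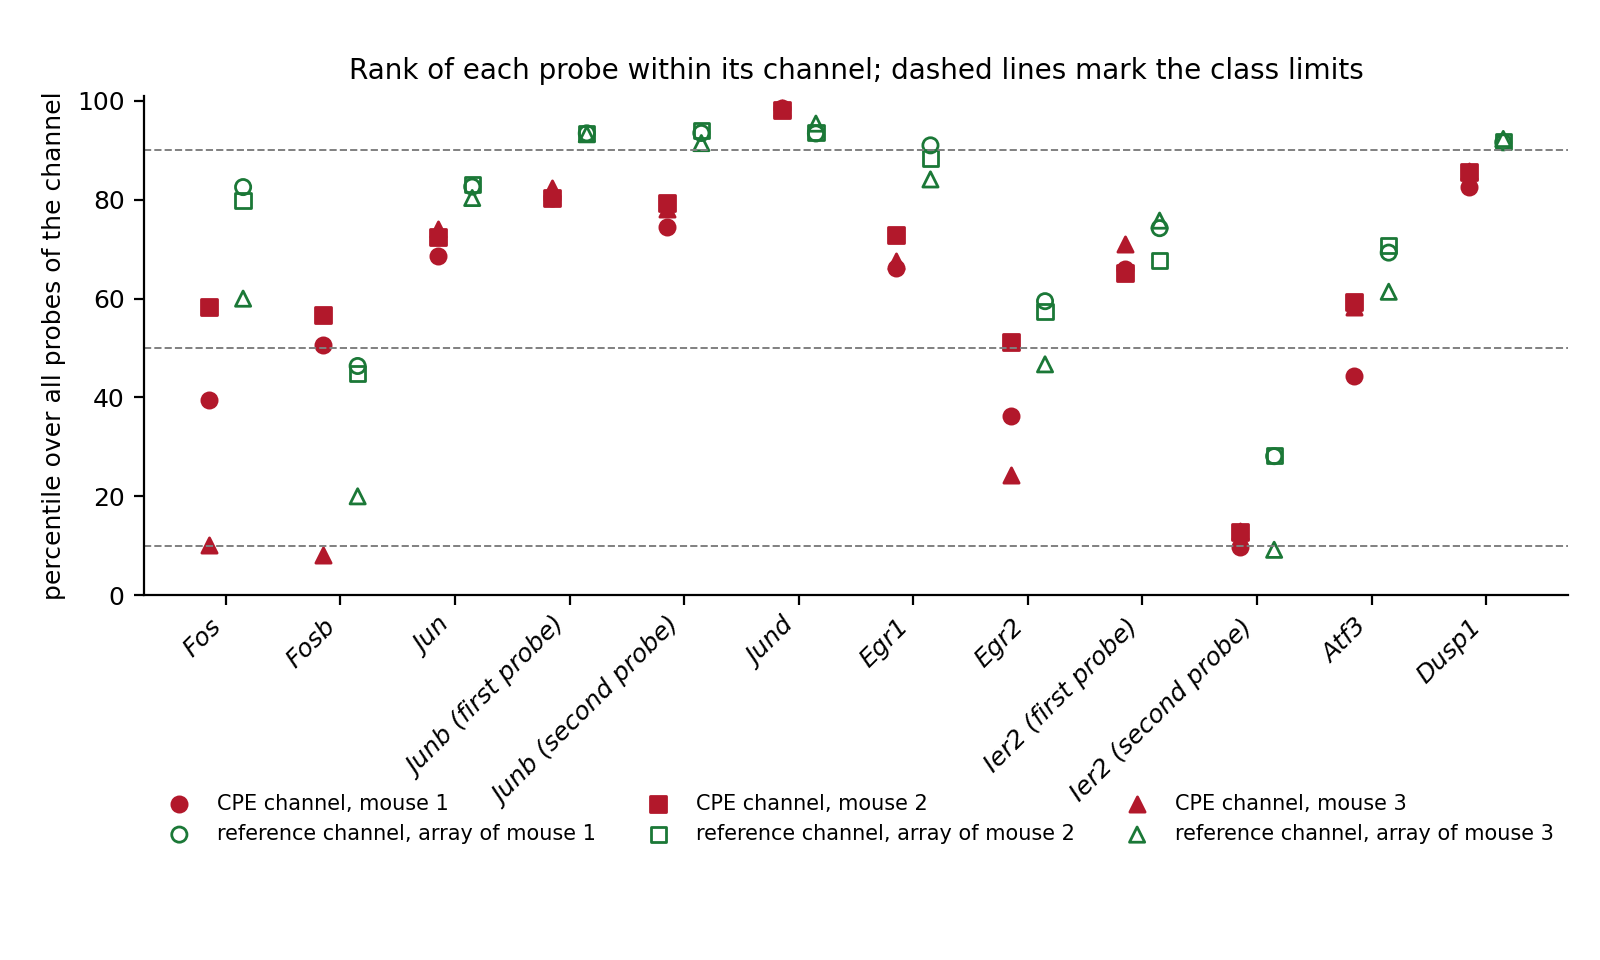
Percentile of each probe over all probes of its channel (vertical axis) is plotted for CPE (filled) and the reference (open), with 1 symbol per mouse and dashed lines at percentiles 10, 50 and 90. The first *Junb* probe, *Dusp1* and *Jund* keep their rank between mice, and the second *Junb* probe varies somewhat more. *Fos* and *Fosb* of CPE spread from under 11 in mouse 3 to over 56 in mouse 2. Their reference ranks are lowest on array 3 too.

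The spread of the log2 ratio between mice also differed among members. The SD was 0.06 for the first *Junb* probe and 0.09 for *Dusp1*, at percentiles 3.69 and 7.69 of the SDs of the 17951 probes measured in both channels on all arrays. For the second *Junb* probe the SD was 0.23, at percentile 38.4, so the small spread was seen with the first probe alone. The SD was 0.47 for *Fosb*, 0.46 for *Egr1* and 0.41 for *Fos*, at percentiles 80.4, 79.4 and 73.8. An SD of 3 values is itself imprecise, and these are descriptions with no test.

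Other genes of the pathway were described by counts, with 1 probe per gene (the brightest) and the same threshold. Beside each count stands the share over all probes tested, 10.2% lower and 7.09% higher, and no list was tested as a set. Of 14 genes for AP-1 and EGR partners, 10 were tested, of which 3 were lower and 1 higher, with a median log2 ratio of −0.18. Lower were *Fosl2*, a FOS relative, at −1.66 (−1.82, −1.45 and −1.72 in the mice), *Atf4*, an effector of the integrated stress response, at −1.58 (−1.51, −2.20 and −1.04), and *Jdp2*, a JUN-binding repressor, at −1.50 (−1.54, −1.48 and −1.48). *Batf3*, a JUN partner, was higher at 1.15 (1.54, 1.42 and 0.49). It was tested through the CPE channel alone: its reference intensity was 110, 108 and 225 over a surface of 84.6, 83.8 and 210, and was not above background on array 3. The count of higher partners was 0 with no background correction, under median centring and with only probes above background in both channels. Median centring also left 1 partner lower. The related *Fosl1*, *Egr3*, *Egr4* and *Nab2* were too dim to be tested.

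Of 26 other immediate early genes, 23 were tested, of which 6 were lower and 0 higher (limma; at an unadjusted p under 0.05, 10 lower and 2 higher), with a median log2 ratio of −0.31. They were *Trib1*, a pseudokinase, at −2.58, *Ctgf* and *Cyr61*, secreted matrix proteins, at −2.57 and −1.44, the zinc finger factors *Klf4* and *Klf6* at −1.75 and −1.71, and *Btg2*, an antiproliferative gene, at −1.27. Genes known from neuronal activity varied. *Arc* was above background in the CPE of every mouse, at 0.74 (0.72, 1.40 and 0.09 in the mice; limma adjusted p = 0.0463), short of 2-fold. *Nr4a1* lay at −0.69 and *Nr4a2* at −0.42, neither past the threshold. *Nr4a3* and *Npas4* were not above background in CPE on any array and were not tested.

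Of 18 upstream kinases and transcription factors, 16 were tested, of which 3 were lower and 1 higher, with a median of 0.15. Median centring in place of loess turned this balance, to 1 lower and 6 higher. Lower were *Map2k1*, encoding MEK1, at −1.43, *Mapk8*, encoding JNK1, at −1.38 and *Creb1* at −1.05. *Map2k2*, encoding MEK2, was higher at 1.03. The probes of 2 of these genes disagreed: other *Mapk8* probes reached 0.24 and another *Creb1* probe lay at 0.02.

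The MAP kinase phosphatases related to *Dusp1* held the largest differences of the 4 lists. All 8 on the array were tested, of which 4 were lower and 0 higher (limma; at an unadjusted p under 0.05, 4 lower and 1 higher), with a median of −0.77. *Dusp4* was at −3.21 (−3.39, −3.37 and −2.87 in the mice) and *Dusp6*, which acts on ERK, at −2.95 (−3.14, −3.10 and −2.63). *Dusp8* and *Dusp7* were at −1.75 and −1.39. *Dusp2*, *Dusp9*, *Dusp10* and *Dusp16* were not past the threshold, at values between −0.14 and 0.65. *Dusp5* was not found by name.

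**Figure D4:**
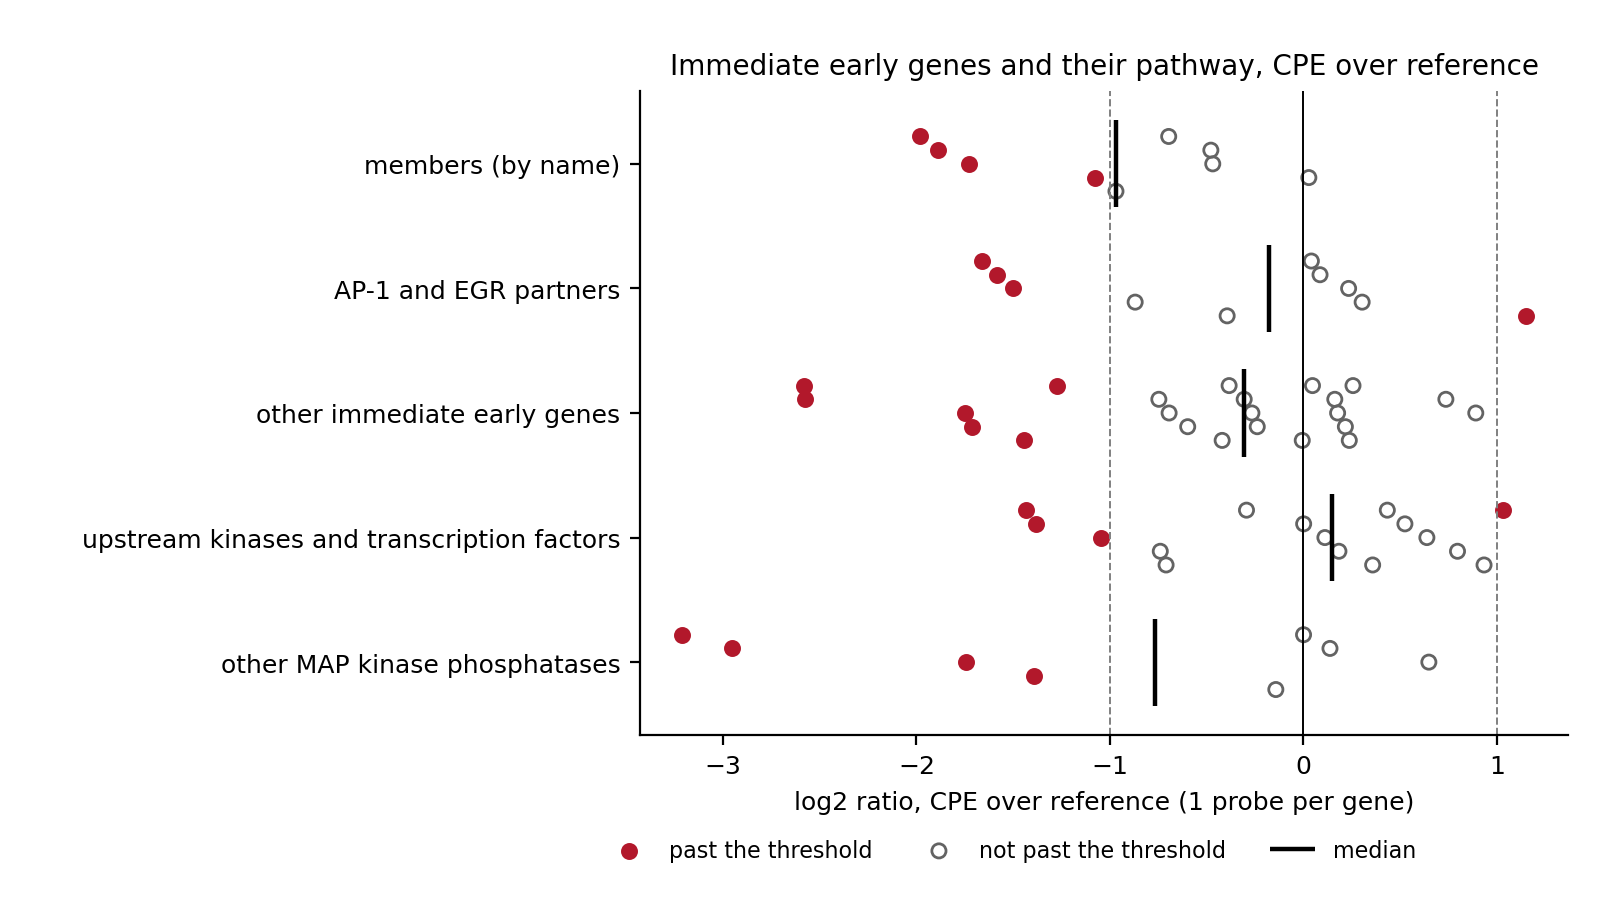
The log2 ratio of CPE over reference (horizontal axis) is plotted for 1 probe of each tested gene in the 9 members and in the 4 lists, filled where past the threshold, with the median of each list as a bar and dashed lines at a 2-fold difference. The medians lie at −0.97 for the members, −0.18, −0.31 and 0.15 for the next lists and −0.77 for the phosphatases, and 2 filled points, *Batf3* and *Map2k2*, lie on the side of CPE.

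Cell type markers moved with this comparison. Of 9 CPE markers on the array, such as *Ttr* and *Kl*, 8 were higher in CPE, and all 9 ranked in the high class. Their summed level was 178900 to 192200 in CPE and 30600 to 37070 in the reference, on the linear scale after Aquantile. Some markers were saturated, so sums that hold them are lower limits: *Ttr* on 3 arrays and *Clic6* on 1 in CPE, and *Dct* on 3, *Dcn* on 2 and *Hbb-bt* on 2 in the reference. Lower in CPE were 7 of 7 photoreceptor markers (summed level 4860 to 6636 in CPE and 171500 to 176100 in the reference), 7 of 8 markers of RPE and melanocytes (4693 to 6759 and 201600 to 213900), and 5 of 6 stromal markers (19040 to 22470 and 116600 to 135700). Lower too were 4 of 6 macrophage markers (7785 to 8342 and 57640 to 63750), 4 of 8 neuronal markers (1847 to 2905 and 17630 to 19910), 3 of 3 red blood cell markers (21080 to 30330 and 141600 to 153400) and 2 of 5 astrocyte markers (4137 to 4871 and 17140 to 18680). Of 6 endothelial markers 0 were past the threshold (limma; 3 at an unadjusted p under 0.05; 7814 to 11430 and 9806 to 11200). Of 4 oligodendrocyte markers tested, 2 were higher (5728 to 6942 and 3522 to 3946, over 5 markers). Each marker was counted by its brightest probe, and the probes of some called markers disagreed. Another probe of *Col1a1* lay at 1.12 and another of *Csf1r* at 0.20, where the probes counted were lower in CPE. Another probe of *Htr2c* lay at −0.05, where the probe counted was higher. Of all these markers *Tyr* alone was below background in CPE on all arrays. The reference thus held RNA of several cell types, and their part in the ratios of *Fos*, *Junb*, *Egr1* and *Dusp1* was not tested.

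The genes whose log2 ratios in the 3 mice were most like those of *Fos*, the member with the largest absolute ratio among those counted, were taken from 12523 named genes measured in both channels on all arrays. By the root mean square difference over the 3 mice these were *Pdyn* (0.0954), *Uckl1* (0.101), *Zfyve28* (0.128), *Syt13* (0.150) and *Rab6b* (0.158). A total of 258 genes lay within 0.5 of *Fos*, so these 5 do not stand apart. Since *Fos* was not above background in the CPE of mouse 3, its value there, its place as the largest ratio and these differences are uncertain.

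The calls of *Fos*, *Junb* and *Egr1* held under all settings in which they were tested, at 12, 13 and 13 other settings. The mean log2 ratio ranged from −3.78 to −1.62 for *Fos*, from −1.79 to −1.15 for the first *Junb* probe (−1.86 for the median over both probes) and from −2.08 to −1.40 for *Egr1*. *Dusp1* was lower at 10 of 13 other settings, with a range from −1.13 to −0.49, and *Jun* at 4 of 13, with a range from −1.11 to −0.56. *Atf3*, *Ier2* and *Fosb* were not past the threshold at any setting. The setting that moved bright members most was median centring in place of loess, which shifted *Egr1* to −1.40, the first *Junb* probe to −1.15 and *Jund* to 2.39, while the median of all probes moved from −0.04 to 0.09. Within the pair of arrays scanned on the same day, 1 and 3, the mean log2 ratio was −2.19 for *Fos*, −1.69 for the first *Junb* probe, −2.02 for *Egr1* and −1.13 for *Dusp1*. Array 2 alone was scanned on the other day.

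**Figure D5:**
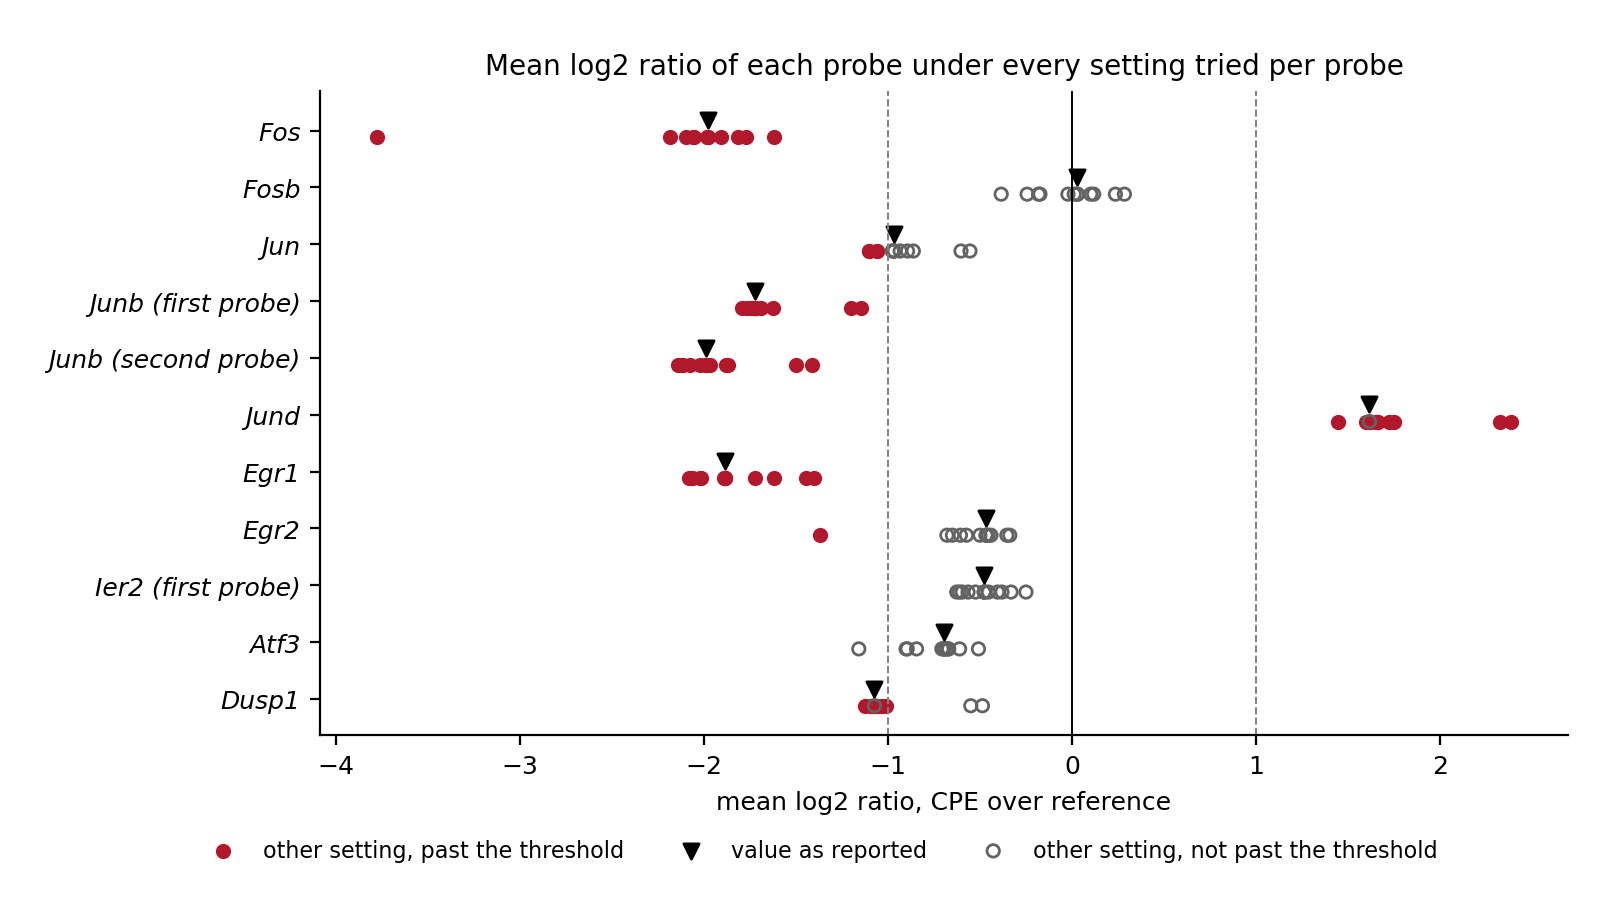
Mean log2 ratio of CPE over reference (horizontal axis) is plotted for each tested probe under every setting tried on single probes, with the reported value as a triangle, other settings as circles that are filled where past the threshold, and dashed lines at a 2-fold difference. All circles of *Fos*, both *Junb* probes and *Egr1* are filled and lie on 1 side, those of *Dusp1* and *Jun* straddle the 2-fold line, and those of *Fosb* lie on both sides of 0.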

How the data were processed

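The authors hybridised each array with CPE RNA in Cy5 and the reference in Cy3 and read it with Agilent Feature Extraction 9.5.3.1. The deposited scanner tables hold the intensity, background and processed intensity of both channels on a linear scale. They also hold a log10 ratio, red over green, that the authors' scanner software made from the processed values. A deposited table holds log2 levels that the authors normalized between arrays with Aquantile in R 2.14.0; it served as an alternative. Probe coordinates were taken from the scanner tables (build mm8).

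Values were read with R 4.3.3 and limma 3.58.1. Spots with an outlier flag and control spots were dropped, and replicate spots of a probe were averaged. Ratios were computed after normexp correction (offset 50) with the local background of each spot, and loess within arrays. This local background had a median of 57, 56 and 58 in the CPE channel of mice 1, 2 and 3. The raised background surface of array 3 was thus not subtracted in the main ratios. Probes with a channel that was well above background on every array were tested with lmFit and eBayes against 0, with Benjamini-Hochberg adjustment over all 25847 probes, and called at an adjusted p under 0.05 and a 2-fold difference. A gene was counted by its brightest probe. Percentiles used log2 intensities without background correction, after Aquantile. The script was tested on simulated data. With arrays the number of mice, 3, limits the precision. The members and all lists were chosen with earlier results of these data known, and the named genes are all members, the called genes of each list (at most 5 in each direction by size of ratio) and the 5 genes most like *Fos*. Alternatives covered the background correction, normalization, dim probe filter, array weights, the test, and leaving out each mouse.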

Additional observations from a re-analysis of the deposited data

How the results depend on the processing

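Among ratios of single probes, 128 values under the alternatives kept their direction and side of the threshold, 5 turned direction, 4 lost the call and 5 gained it. *Fosb*, never past the threshold, turned to −0.25 under median centring in place of loess, −0.39 with the scanner log ratio, −0.02 without mouse 1, −0.18 without mouse 2 (0.28 without mouse 3) and −0.18 with the background surface and median centring. The cause was not tested. The count of members lower in CPE was 4 and ranged from 3 to 6 (6 with the scanner log ratio, 5 with array weights of 1.89, 0.95 and 0.55, and 4 to 5 on leaving out 1 mouse); 0 were higher under any setting. A limma test against a 2-fold difference (treat) left 3 and gave *Dusp1* an adjusted p of 1. *Jund*, not counted among the members, was higher at 12 of 13 other settings.

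The lists moved more in their small counts. AP-1 and EGR partners higher were 1, and 0 with no background correction, under median centring and with only probes above background in both channels, and 0 to 1 without 1 mouse; 1 was lower under median centring. Other immediate early genes higher were 0, and 1 under median centring, with the scanner log ratio and with array weights, and 0 to 2 without 1 mouse. Upstream kinases and factors higher were 1, and 6 under median centring, 3 with the scanner log ratio, 2 with array weights and 0 to 2 without 1 mouse; 1 was lower under median centring. Other MAP kinase phosphatases higher were 0, and 1 with the scanner log ratio. Members in the high or moderate class were 6, and 2 among only probes above background in CPE. Without mouse 3 they were 7, with *Fosb* at percentile 53.1. Among only curated transcripts they were 5, with *Atf3* at 38.9. The SD over the arrays was larger in the CPE channel than in the reference for 4 of 9 members after Aquantile (48.0% of all probes), 8 after quantile normalization of both channels (78.8%), 7 after median centring of each channel (93.8%) and 7 with normexp and loess before Aquantile (78.1%), so the members moved with all probes.

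Over all probes, median centring moved the higher share of called probes from 41.1% (of 4462) to 67% (of 5587), so the split between higher and lower rests on the scaling; 6756 were called with the scanner log ratio and 1413 with treat. The background surface with median centring and the background surface without mouse 3 were added after seeing the data; they left 3 and 5 members lower. For *Fos*, *Fosb* and *Egr2*, and for *Atf3* in mice 1 and 2, the signal over background in the CPE limits the ratio.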
